A study of Mus musculus with 10 samples.

Results

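The genes described here start or restrain blood clotting at the cell surface and turn plasminogen into plasmin: F3, Tfpi, Thbd, F2r, Plau, Plaur, Plat, Serpine2 and Serpinf1. They were taken by gene symbol from a table of RPKM (reads scaled to transcript length and library size) that names 14248 genes. Of the 9 listed genes, 8 were matched to a row, and Serpine2, a serpin that inhibits thrombin and the plasminogen activators, is not analysed here. All 8 met the filter for testing, which asked for 1 RPKM in at least 2 of 10 libraries. Tfpi met it through only 2 libraries, the parental one and FOXP2-CPED1 clone 3.

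The cells were NIH3T3, a long-established fibroblast line from mouse embryos. The control arm had 1 library of parental cells and 1 of cells that stably overexpress the vector. The other libraries came from 4 clones that stably overexpress FOXP2, a forkhead transcription factor, and from 4 clones that stably overexpress FOXP2-CPED1, which the series title calls an arrangement of FOXP2. Each clone was measured in 1 library, so spread within a construct is spread between clones. No label calls the vector cells a clone, so the derivation of clones cannot be told apart from the constructs. Neither the vector's promoter nor the species of the introduced sequence is stated in the labels.

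Tissue factor, the product of F3, is the membrane receptor of factor VII, and the pair of them sets off clotting. Urokinase, the product of Plau, and tissue-type plasminogen activator, the product of Plat, cut plasminogen to plasmin. Plaur encodes the receptor that holds urokinase at the cell surface. Serpins are protease inhibitors, several of which block these enzymes. In mouse fibroblasts F3 is known as a gene that serum induces.

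Steps among values under 0.3 RPKM gave relative depths from 0.913 to 1.32 of the parental library, and the absolute depth is unknown. Summed RPKM ran from 794682 to 944602, and no libraries were identical. The mouse Foxp2 row stood at 0.0798 and 0.0785 RPKM in the controls and between 0.0674 and 1.02 in the clones, and it may miss the introduced sequence, so it does not check the labels. Clones 2 and 4 of FOXP2 and clone 3 of FOXP2-CPED1 had 0 for both mitochondrial rows. FOXP2 clone 2 and FOXP2-CPED1 clone 4 lay at 1 end of the libraries. On the first principal component, computed without the listed members and pathway and marker genes (27.4% of the variance), they lay at 32.2 and 39.03 and the other libraries between -41.3 and 13.5. FOXP2 clone 3 lay at the other end, with its nearest library at -24.7. On the second component (19.4%) the same pair lay apart from each other, at -39.1 and -7.81. Fibroblast markers were high in every library: 9 of 10 were matched, all 9 met the filter, and their summed RPKM was 9218 to 9318 in the controls, 6020 to 8668 with FOXP2 and 6412 to 9282 with FOXP2-CPED1. Of 8 endothelial markers only Cdh5 was matched to a row of its own, and it never exceeded 0.536 RPKM. Egfl7 and Esam, like the platelet marker Gp1bb and the macrophage marker Cd68, occur only in rows joined with another gene, which were not read. Of 7 platelet markers 4 were matched, 2 of which (Pf4 and Gp9) never reached 1 RPKM, with sums of 6.87 to 8.21 RPKM in the controls, 4.43 to 10.9 with FOXP2 and 8.21 to 10.1 with FOXP2-CPED1. Of 8 macrophage markers only Lyz2 and Cd14 were matched, with sums of 35.3 to 37.3, 24.5 to 40.4 and 26.7 to 46.7 RPKM in the same order. Of 6 hepatocyte markers only Ttr was matched, at 5.40 to 25.8 RPKM. These are bulk libraries, in which fewer cells of a type and less RNA per cell cannot be told apart.

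Promoter sequences of F3, Plaur and F2r are shown because these are the members with a matched window that holds an AP-1 match, and their levels in the clones spanned 11.5 to 27.6%, 11.1 to 70.0% and 62.0 to 106.5% of the control mean. The windows are the 250 bases before the RefSeq start on GRCm38.p6, printed 5′ to 3′ on the strand of the gene, with AP-1 matches (TGANTCA, both strands) in capitals.
F3, chr3:121723287-121723536, plus strand: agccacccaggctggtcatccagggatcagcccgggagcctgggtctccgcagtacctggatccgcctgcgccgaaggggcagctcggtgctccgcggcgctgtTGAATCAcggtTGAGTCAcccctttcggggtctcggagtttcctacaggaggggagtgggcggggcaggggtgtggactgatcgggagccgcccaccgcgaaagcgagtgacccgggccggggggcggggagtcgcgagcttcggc
Plaur, chr7:24462233-24462482, plus strand: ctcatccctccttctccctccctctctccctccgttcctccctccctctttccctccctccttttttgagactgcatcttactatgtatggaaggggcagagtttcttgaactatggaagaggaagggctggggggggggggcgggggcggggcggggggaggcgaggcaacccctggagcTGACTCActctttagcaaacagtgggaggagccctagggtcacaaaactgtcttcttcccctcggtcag
F2r, chr13:95618467-95618716, minus strand: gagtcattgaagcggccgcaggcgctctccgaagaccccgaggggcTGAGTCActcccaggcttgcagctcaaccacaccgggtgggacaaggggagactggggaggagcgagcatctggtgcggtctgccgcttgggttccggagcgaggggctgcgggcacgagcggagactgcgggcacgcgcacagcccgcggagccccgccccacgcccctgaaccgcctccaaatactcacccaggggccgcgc
In the F3 window the 2 AP-1 matches began 146 and 135 bases before the start. The single match began 69 bases before it in the Plaur window and 204 bases before it in the F2r window. Among 32851 windows of the same length, 6.75% held an AP-1 match. The F3 window also held 3 matches to the SP1 motif GGGCGG, which 32.7% of windows hold at least once. The Plaur window held 3 SP1 matches, and 2 of them overlap the only EGR match (GCGNGGGCG, in 4.70% of windows). The TEAD motif GGAATG, which 12.6% of all windows hold on either strand, was not found in these 3 windows. Neither was the forkhead motif TGTTTAC, which 3.17% of windows hold, nor the NF-kB motif, which 1.41% hold. The same was true of the core promoter element TATAAA, which 12.4% of windows hold. RefSeq windows matched 6 of the 9 listed genes, and the windows of Tfpi, Serpinf1 and Serpine2 held no AP-1 match. Plau, Plat and Thbd had no matched window and were not searched. These matches are letters in a window and do not show binding.

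F3 was low in every clone and was the only member that passed with both constructs. The parental and vector libraries each had 433 RPKM. The values of FOXP2 clones 1 to 4 were 120, 49.7, 71.4 and 52.4 RPKM. Those of FOXP2-CPED1 clones 1 to 4 were 91.8, 98.9, 92.7 and 50.7 RPKM. Every clone lay below both controls, at 11.5 to 27.6% of the control mean, and the arms of the constructs overlapped each other. F3 fell with FOXP2 (log2 fold change -2.64 ± 0.36 SE, adjusted p = 0.0167) and with FOXP2-CPED1 (-2.41 ± 0.36, adjusted p = 0.0250), both by limma with Benjamini-Hochberg adjustment over 12842 rows. The control mean was 433 ± 0.0481 RPKM (SD, n = 2), against 73.3 ± 32.4 (n = 4) and 83.5 ± 22.1 (n = 4). Both comparisons share these 2 controls. The FOXP2 call was lost without the parental (adjusted p = 0.256) or the vector library (0.289), without the 3 clones with 0 for both mitochondrial rows (0.122), and in a fit of these 2 arms alone (0.0983). The FOXP2-CPED1 call was lost without either control, where a single control remains (log2 fold change -2.41 without the parental and -2.41 without the vector library). It was also lost without FOXP2-CPED1 clone 1 (adjusted p = 0.0720), clone 2 (0.0580) or clone 3 (0.0671). The same held without the 3 clones with 0 for both mitochondrial rows (0.0578). Under every alternative run the log2 fold changes stayed between -2.90 and -2.0 for FOXP2 and between -2.50 and -2.19 for FOXP2-CPED1. The libraries with mitochondrial rows at 0 include no control, so no value within them alone can be had.

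**Figure D1:**
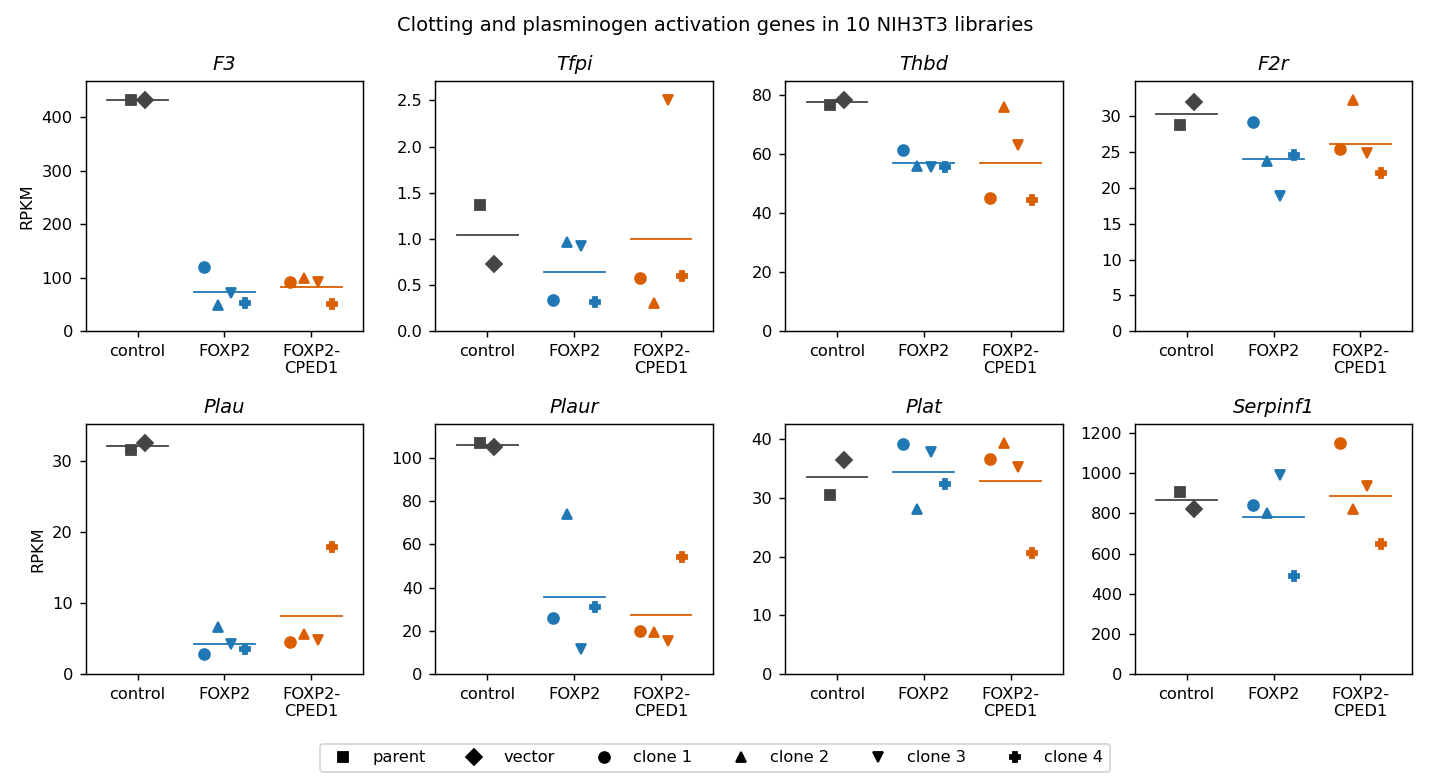
RPKM (vertical axes, linear from 0, a different range per gene) of the 8 measured members in control, FOXP2 and FOXP2-CPED1 libraries (horizontal axis). Each symbol is a library, its shape gives the culture or clone number, and the line is the mean of the arm. F3, Plau, Plaur and Thbd lay lower in all 8 clones than in both controls, while Plat, F2r, Tfpi and Serpinf1 overlapped them.

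Tfpi, whose product shuts off the complex of tissue factor and factor VII, was at the edge of detection. The parental library had 1.37 RPKM and the vector library 0.725. The values of FOXP2 clones 1 to 4 were 0.340, 0.970, 0.923 and 0.318 RPKM. Those of FOXP2-CPED1 clones 1 to 4 were 0.576, 0.307, 2.51 and 0.597 RPKM. The highest value was in FOXP2-CPED1 clone 3, the clones ran from below to above both controls, and neither comparison passed (adjusted p = 0.874 with FOXP2 and 0.972 with FOXP2-CPED1, limma). The ratio of F3 to Tfpi was also taken within each library, from RPKM + 1. It was 183 in parental and 252 in vector cells and between 25.8 and 90.0 in the clones, without overlap on this scale. Most Tfpi values were below the added 1, which therefore sets much of these ratios. Without it, the ratio would be higher in FOXP2 clone 1 and FOXP2-CPED1 clone 2 than in parental cells. On the log2 scale the ratio was 7.75 ± 0.32 (SD, n = 2) in the control, 5.44 ± 0.76 (n = 4) with FOXP2 and 5.47 ± 0.71 (n = 4) with FOXP2-CPED1. Two-sided exact permutation tests gave p = 0.0667 against each construct, the smallest that 2 against 4 libraries allow, and p = 0.0222 for all 8 clones, the smallest that 2 against 8 allow. For all 8 clones the log2 ratio differed by -2.29 and F3 alone by -2.52, with the same exact p. The ratio is therefore no result separate from F3.

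Thbd encodes thrombomodulin, which binds thrombin and turns it towards activating protein C. The parental library had 76.7 RPKM and the vector library 78.5. The values of FOXP2 clones 1 to 4 were 61.5, 55.8, 55.6 and 55.7 RPKM. Those of FOXP2-CPED1 clones 1 to 4 were 44.99, 75.9, 63.3 and 44.6 RPKM. All 8 clones lay below both controls, FOXP2-CPED1 clone 2 by less than 1 RPKM, and the difference did not pass with FOXP2 (log2 fold change -0.44 ± 0.21, adjusted p = 0.621) or with FOXP2-CPED1 (-0.47 ± 0.21, adjusted p = 0.674). A second row, joined with the neighbouring somatostatin receptor gene Sstr4, ran from 11.2 to 33.5 RPKM and was not counted to Thbd. F2r, a receptor that thrombin cuts open, stood at 28.8 and 31.9 RPKM in the controls. FOXP2 clones 1 to 4 had 29.2, 23.7, 18.8 and 24.7 RPKM, and FOXP2-CPED1 clones 1 to 4 had 25.4, 32.3, 24.9 and 22.04. The arms overlapped, and F2r did not pass (adjusted p = 0.704 and 0.872, limma).

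Plau was the other member that passed. The parental library had 31.6 RPKM and the vector library 32.6. The values of FOXP2 clones 1 to 4 were 2.84, 6.63, 4.25 and 3.61 RPKM. Those of FOXP2-CPED1 clones 1 to 4 were 4.604, 5.69, 4.798 and 17.9 RPKM. All clones lay below both controls, 7 of 8 at 8.86 to 20.7% of the control mean, and FOXP2-CPED1 clone 4 at 55.8%. Plau fell with FOXP2, from 32.1 ± 0.687 (SD, n = 2) to 4.33 ± 1.64 RPKM (n = 4; log2 fold change -2.68 ± 0.46, limma adjusted p = 0.0401). With FOXP2-CPED1 the mean was 8.24 ± 6.45 RPKM (n = 4) and the difference did not pass (-2.05 ± 0.46, adjusted p = 0.142). It passed without FOXP2-CPED1 clone 4 (-2.46, adjusted p = 0.00952) and with library quality weights (-2.36, adjusted p = 0.000392). The former leaves out the clone with the most Plau. The weighted fit called 929 of all rows in this comparison, against 45 in the main fit. The FOXP2 call is near its threshold: it was kept without FOXP2-CPED1 clone 4 and lost without any other single library (adjusted p from 0.0514 without FOXP2 clone 2 to 0.495 without vector), without the 3 libraries with mitochondrial rows at 0 (0.175), and with pseudocounts of 0.1 (0.0546) and 0.25 (0.0530).

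Plaur was low in most clones and spread widely between them. The parental library had 107 RPKM and the vector library 105. The values of FOXP2 clones 1 to 4 were 26.1, 74.1, 11.8 and 31.1 RPKM. Those of FOXP2-CPED1 clones 1 to 4 were 20.2, 19.7, 15.3 and 54.4 RPKM. The clones lay below both controls, 6 of 8 at 11.1 to 29.3% of the control mean, with FOXP2 clone 2 at 70.0% and FOXP2-CPED1 clone 4 at 51.3%. Neither comparison passed, with a log2 fold change of -1.82 ± 0.63 for FOXP2 (limma adjusted p = 0.388) and -2.09 ± 0.63 for FOXP2-CPED1 (adjusted p = 0.371). The 95% intervals were -3.22 to -0.42 and -3.49 to -0.69. A limma fit with library quality weights called both (-1.98, adjusted p = 0.00115, and -2.41, adjusted p = 0.00105), and that fit called 2095 and 929 of all rows in these comparisons.

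Plat, the other activator, kept near the control. The parental library had 30.5 RPKM and the vector library 36.3. FOXP2 clones 1 to 4 had 39.1, 28.1, 37.8 and 32.4 RPKM, and FOXP2-CPED1 clones 1 to 4 had 36.5, 39.3, 35.1 and 20.6. The arms overlapped (adjusted p = 0.987 and 0.984, limma), and the 95% interval of the log2 fold change was -0.52 to 0.58 with FOXP2 and -0.61 to 0.49 with FOXP2-CPED1. The lowest Plat values were in FOXP2 clone 2 and FOXP2-CPED1 clone 4, the clones with the most Plau. In the controls both activators were at similar RPKM, with a ratio of Plau to Plat (RPKM + 1) of 1.03 in parental and 0.899 in vector cells. The ratio was 0.0959 to 0.262 in 7 clones and 0.875 in FOXP2-CPED1 clone 4. On the log2 scale its difference from the control was -2.71 with FOXP2 and -1.99 with FOXP2-CPED1 (two-sided exact permutation p = 0.0667 each, the smallest possible), and p was 0.0222 for all 8 clones. For all 8 clones the difference was -2.35, against -2.36 for Plau alone with the same exact p, so the ratio repeats the Plau result.

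**Figure D2:**
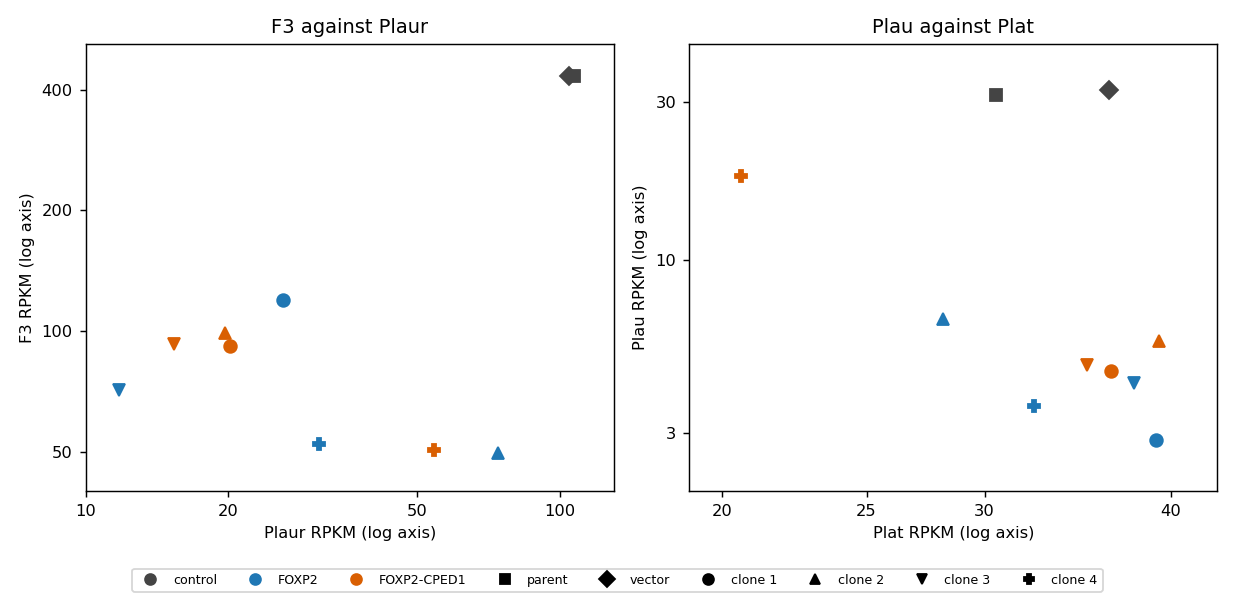
F3 against Plaur (left) and Plau against Plat (right), in RPKM on log axes, with 1 symbol per library, coloured by arm and shaped by culture or clone number. FOXP2 clone 2 and FOXP2-CPED1 clone 4 hold the most Plaur of the clones (74.1 and 54.4 RPKM) and the least F3 (49.7 and 50.7), and FOXP2-CPED1 clone 4, with 20.6 RPKM of Plat, holds more Plau than the other clones. FOXP2 clone 4 has nearly as little F3 (52.4 RPKM) with 31.1 RPKM of Plaur.

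Among the serpins, Serpinf1 was the most abundant member, and its product is a secreted serpin that does not inhibit proteases. The parental library had 905 RPKM and the vector library 824. FOXP2 clones 1 to 4 had 844, 800.5, 989 and 487 RPKM, and FOXP2-CPED1 clones 1 to 4 had 1151, 820, 937 and 648. The arms overlapped and neither comparison passed (adjusted p = 0.898 and 0.997, limma).

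**Figure D3:**
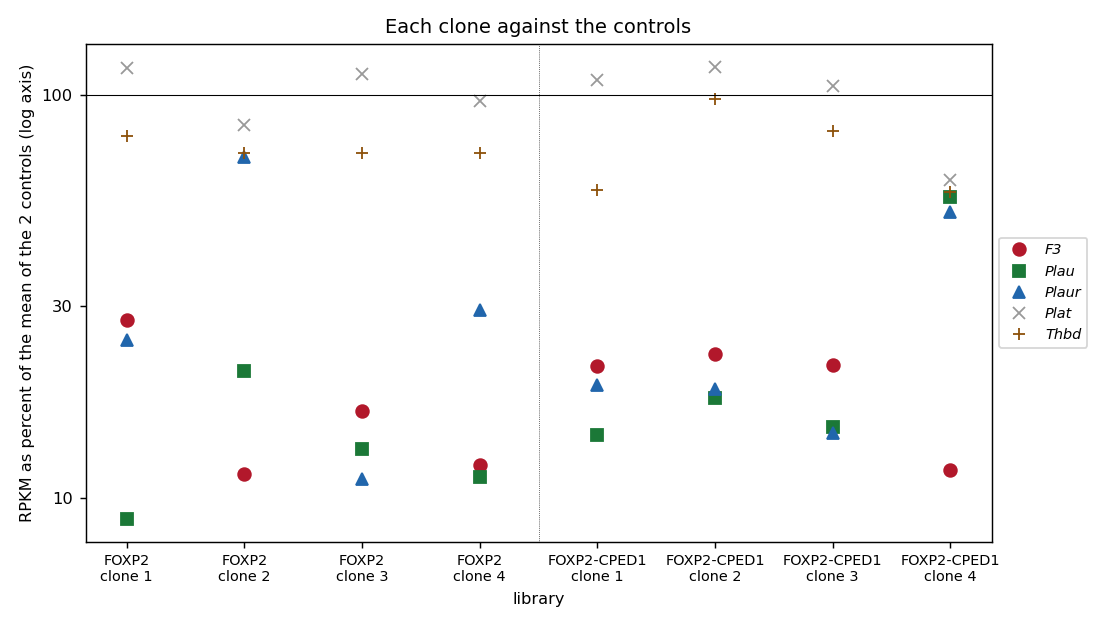
RPKM of 5 genes in each clone (horizontal axis) as a percent of the mean of the 2 controls (vertical log axis, line at 100%). Plaur stands highest in FOXP2 clone 2 and FOXP2-CPED1 clone 4, where F3 is at its lowest, 11.5 and 11.7% of the control mean. F3 is nearly as low in FOXP2 clone 4 (12.1%), where Plaur is at 29.3%.

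FOXP2 clone 2 and FOXP2-CPED1 clone 4 differed from the other 6 clones in opposite ways for different members. They held the lowest F3 (49.7 and 50.7 RPKM, against 52.4 to 120 in the other 6) and the lowest Plat (28.1 and 20.6, against 32.4 to 39.3). They held the highest Plau (6.63 and 17.9, against 2.84 to 5.69) and the highest Plaur (74.1 and 54.4, against 11.8 to 31.1). S100a10 and Anxa2, which together form a binding site for plasminogen and its activator on cells, were also highest there: S100a10 at 1075 and 864 RPKM against 501 to 664, and Anxa2 at 995 and 868 against 475 to 655. Of the 21 other pathway genes that met the filter, Eno1 was highest there too (558 and 584, against 333 to 438). Gas6 was lowest there (4.39 and 4.88, against 5.42 to 44.1). The rest were neither above nor below all of the other 6 in both clones. Plgrkt, for example, stood at 32.5 and 23.6 RPKM, against 27.7 to 38.1. Of the 9 measured fibroblast markers, 6 (Col1a2, Col3a1, Pdgfra, Pdgfrb, Fn1 and Dcn) were lower in both of these clones than in any of the other 6. Dcn, for example, stood at 74.8 and 34.8 RPKM, against 128 to 342. Vim was higher in both than in the others (2420 and 2156 RPKM, against 1295 to 1924). Col1a1 (907 and 1086, against 889 to 1239) and Thy1 (106 and 96.5, against 61.8 to 135) lay within the range of the other 6. Vim and Thy1 lay below both controls in all 8 clones, as did 6.38% of all rows, and neither passed. The controls had 3140 and 2794 RPKM of Vim and 156 and 149 of Thy1. The part that the differences of these 2 clones have in the results was not tested. Without these 2 clones, left out after their values were seen, the log2 fold change of Plaur was -2.26 with FOXP2 (limma adjusted p = 0.0406) and -2.47 with FOXP2-CPED1 (0.0302). Both clones were known to be high in Plaur when they were left out, so those values describe the other 6 clones and are no test.

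Counted together, 2 of the 8 members fell with FOXP2 (F3 and Plau), where 0.397% of 12842 rows were called lower, and 1 fell with FOXP2-CPED1 (F3), where 0.327% were. No member rose in either, where 0.0389% and 0.0234% of rows were called higher. The median log2 fold change of the 8 was -0.39 with FOXP2 and -0.34 with FOXP2-CPED1, against 0.02 and 0.00 over all tested rows. In each comparison 4 of the 8 (F3, Thbd, Plau and Plaur) lay below both controls in every clone, as did 10.4% of all rows with FOXP2 and 13.3% with FOXP2-CPED1. When all 8 clones were set against the control, F3 (log2 fold change -2.52 ± 0.33, limma adjusted p = 0.0107) and Plau (-2.36 ± 0.42, adjusted p = 0.0418) fell, where 0.498% of rows were called lower. The same 4 members lay below both controls in all 8 clones, as did 6.38% of rows. The F3 call was lost without the parental (0.194) or vector library (0.234). The Plau call was lost without any single library other than FOXP2 clone 2 and FOXP2-CPED1 clone 4 (0.0610 to 0.543). Exact permutation over these 10 libraries gave p = 0.0222, the smallest possible, for each of F3, Plau and Plaur, and p = 0.0444 for Thbd. All these comparisons share the same 2 controls, and the members were chosen with earlier results of these data known.

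**Figure D4:**
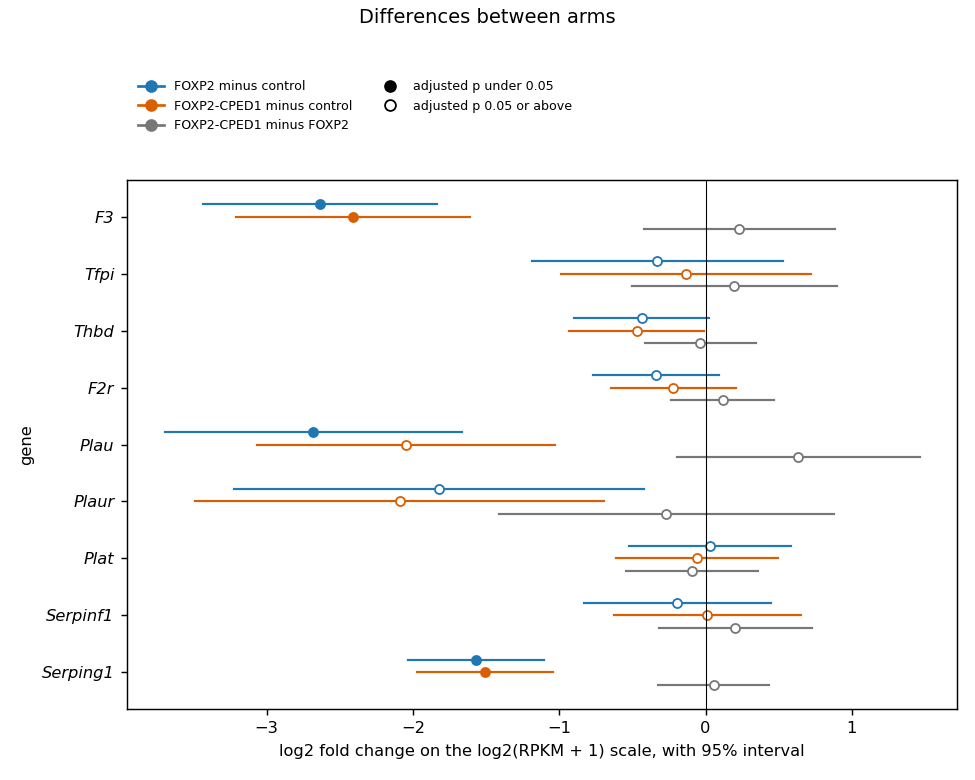
Log2 fold changes with 95% intervals (horizontal axis, log2(RPKM + 1) scale) of the 8 members and of Serping1 (rows) in 3 comparisons. Filled points have an adjusted p under 0.05. F3 is filled in both comparisons with the control and Plau only with FOXP2. Serping1 is also filled in both, but it met the filter only through the controls, and every interval between the constructs spans 0.

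FOXP2-CPED1 clones were also compared with FOXP2 clones. No member passed (limma adjusted p = 0.9998 for all 8). Of all 12842 rows, 0 (0.00%) passed, 278 (2.16%) had an unadjusted p under 0.05, none of them a member, and a fit with library quality weights called 4. The largest difference among the members was in Plau, 0.63 ± 0.37 higher on the log2 scale in the FOXP2-CPED1 clones (95% interval -0.20 to 1.46; exact permutation p = 0.229), and without clone 4 of FOXP2-CPED1 it was 0.22. For F3 the interval was -0.42 to 0.88, for Plaur -1.41 to 0.88 and for Thbd -0.41 to 0.34. The smallest exact p that 4 against 4 clones allow is 0.0286.

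Of 21 other genes of clotting and plasminogen activation that met the filter, 1 was called lower and none higher with either construct, beside 0.397 and 0.327% of all rows called lower. The 1 gene was Serping1, which encodes an inhibitor of contact-phase and complement proteases. It met the filter only through the 2 controls, so it could only be lower in the clones, and nothing is read from its call. It stood at 1.75 and 2.50 RPKM in the controls. It was between 0.0258 and 0.0628 RPKM in the FOXP2 clones and between 0.0291 and 0.288 in FOXP2-CPED1 clones 1, 2 and 4, and was listed at 0 in clone 3. The median log2 fold change of the 21 genes was -0.13 with FOXP2 and -0.18 with FOXP2-CPED1.

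Serpinb8, an intracellular serpin, stood at 17.8 ± 1.49 RPKM (SD, n = 2) in the control, 9.19 ± 6.54 (n = 4) with FOXP2 and 9.24 ± 1.5 (n = 4) with FOXP2-CPED1, and S100a10 at 888 ± 62.6, 722 ± 247 and 648 ± 148. Lrp1, a clearance receptor for proteases bound to their inhibitors, stood at 423 ± 16.2, 354 ± 85.2 and 326 ± 70.02 RPKM. None of these passed. Of 4 further clotting factors and inhibitors, none passed: Gas6, a vitamin K-dependent ligand of receptor kinases, stood at 26.7 ± 0.966, 12.2 ± 10.7 and 23.6 ± 16.1 RPKM, and Procr, the endothelial protein C receptor, at 22.2 ± 4.46, 18.97 ± 6.24 and 21.8 ± 3.17. Of 4 genes of the vitamin K cycle and of factor secretion none passed. Ggcx, the vitamin K-dependent carboxylase, stood at 23.4 ± 0.419, 18.9 ± 2.87 and 20.3 ± 1.85 RPKM (adjusted p = 0.663 with FOXP2, limma). Lman1, a cargo receptor for factors V and VIII, was at 43.03 and 43.8 RPKM in the controls and at 55.4 to 65.8 in all clones (adjusted p = 0.227 with FOXP2 and 0.328 with FOXP2-CPED1, limma). Between the constructs the smallest p-values of these lists belonged to Gas6, Plgrkt (a plasminogen receptor; 34.3 ± 2.92 RPKM with FOXP2 and 30.1 ± 5.52 with FOXP2-CPED1), Lrpap1 (a chaperone of clearance receptors; 31.3 ± 4.82 and 27.3 ± 7.12) and Procr, each with an adjusted p of 0.9998. The other protease-activated receptors and most liver-made clotting factors were matched to no row of their own and are not analysed here.

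**Figure D5:**
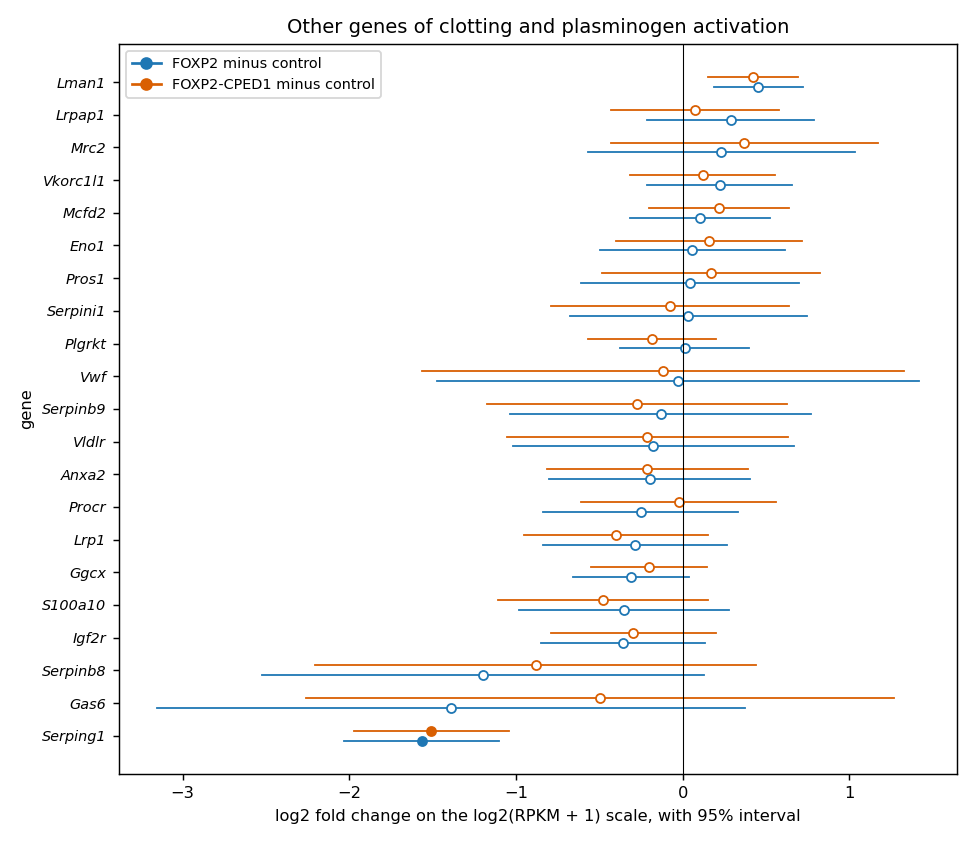
Log2 fold changes with 95% intervals (horizontal axis, log2(RPKM + 1) scale) of 21 other pathway genes that met the filter (rows), with FOXP2 in blue and FOXP2-CPED1 in orange. Filled points have an adjusted p under 0.05, which Serping1 alone reached, having met the filter only through the controls, and the Gas6 intervals are the widest.

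Each member's nearest neighbours in pattern were the 3 single genes with the highest Pearson's r over the 10 libraries. The scale was log2(RPKM + 1), and this is a description with no test. For members lower in all clones, the gap between controls and clones raises r with any gene that shares it. F3 with Plau, for example, had r = 0.679 over the 10 libraries and -0.55 over the 8 clones. F3 with Plaur had 0.511 and -0.655, and Plau with Plaur had 0.82 and 0.548. For F3 they were Plekhg2 (r = 0.974), which encodes an exchange factor for small GTPases, the phosphodiesterase Pde1b (0.970) and Tmem37 (0.967). Pde1b met the filter only through the 2 controls, so nothing is read from its place here. Its level was 1.52 and 1.48 RPKM in the controls and 0.169 to 0.650 in the clones. Plekhg2 stood at 24.8 and 28.7 RPKM in the controls and 9.47 to 15.6 in the clones. For Plau they were Parvg (0.959), the actin-binding gene Nexn (0.952) and the myosin light chain gene Myl9 (0.945). Parvg also met the filter only through the 2 controls (1.21 and 1.04 RPKM, against 0.200 to 0.850 in the clones), and nothing is read from it. Nexn stood at 6.44 and 6.87 RPKM in the controls and 0.795 to 3.16 in the clones. For Plaur they included Noct (0.978) and Pdcl3 (0.975). Noct, which encodes a circadian phosphatase of nicotinamide nucleotides, stood at 10.2 and 10.6 RPKM in the controls and 6.90 and 4.79 in FOXP2 clone 2 and FOXP2-CPED1 clone 4, against 1.74 to 2.73 in the other 6 clones. For Thbd they were Rhbdf1 (0.947), Klf9 (0.929) and Tmem123 (0.923), and for F2r Postn (0.920), Cndp2 (0.919) and Zbtb8a (0.894). For Plat they were Zfp846 (0.944), the matrix proteoglycan gene Dcn (0.943) and Galnt4 (0.942). For Serpinf1 they were Tmed3 (0.972), Ppib (0.964) and Rcn3 (0.959), whose products work in the secretory pathway. For Tfpi they were Tmem38b (0.931), Fam168a (0.863) and Asrgl1. Fam168a stood at 121 RPKM in FOXP2-CPED1 clone 3, which also held the most Tfpi, and at 28.1 to 43.9 in the other libraries. No gene appeared among the neighbours of more than 1 member.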

How the data were processed

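RNA from 10 NIH3T3 cultures was extracted with Trizol and prepared for sequencing using an NEBNext Ultra RNA kit, per the labels' protocols. Reads were processed with HISAT2 and StringTie on mm9, per the submitters' processing notes (versions, annotation and strand setting not given in the sources used here). In 1 file the authors deposited a table of RPKM with 18430 rows. Of these, 3581 name no gene (3.37 to 4.54% of summed RPKM) and were not tested.

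Rows with 1 RPKM or more in at least 2 libraries (12842) were tested on log2(RPKM + 1), a scale that understates changes of low genes. The test was limma 3.58.1 with trend in R 4.3.3, with 3 arms, all 10 libraries and two-sided Benjamini-Hochberg adjusted p under 0.05. The same fit was run on simulated data with planted changes and independent noise. Those data hold no outlying clones, so that run does not bear on the calls made here. Single values had exact permutation tests (NumPy 2.4.6). Where a symbol had several rows, the highest mean was used. All members were named, and, of the other pathway genes, those past the threshold and the 4 with the smallest p per comparison; likeness named the 3 highest Pearson's r. Of the pathway list, 1 gene is not reported here. The members and lists were chosen with earlier results of these data known. P-values measure only the spread between these cultures. Alternatives were pseudocount, filter, scaling, trend, library weights, arms fitted, a replicate block, summed rows and libraries left out.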

Additional observations from a re-analysis of the deposited data

Results flagged for a closer look

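In 36 arms of 4 clones examined, 6 held a value whose gap to the nearest clone exceeded Dixon's 95% limit for the share of the whole range. Chance alone gives this in about 1 of 20 groups. The 36 arms reuse the same clones for each gene and are not independent, so the 6 cannot be set against that share. Each is set against the clones of the same construct only. In FOXP2-CPED1 clone 4, F3 was far below the other FOXP2-CPED1 clones (50.7 RPKM, the next 91.8), while Plau (17.9, the next 5.69) and Plaur (54.4, the next 20.2) were far above them. In the same clone Ggcx stood at 17.5 RPKM (the next 20.8). Tfpi stood at 2.51 RPKM in FOXP2-CPED1 clone 3 (the next 0.597), and Thbd at 61.5 RPKM in FOXP2 clone 1 (the next 55.8).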

How the results depend on the processing

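The control arm holds 2 libraries, and the error of each comparison is pooled over all arms; leaving 1 control out assumes that the lone library varies like the other arms. Absolute depth is unknown, so no counting error can be given, and Tfpi near 1 RPKM is least certain. F3 kept its sign against the control in every alternative and its call in 19 of 23 for FOXP2 and 17 of 23 for FOXP2-CPED1; Plau kept its call in 11 of 23 for FOXP2. The number of genes called with FOXP2 (56), FOXP2-CPED1 (45) and both together (69) became 37 and 28 for the first pair with a pseudocount of 0.1, and 2095, 929 and 1842 with library quality weights, which also called 4 between the constructs. It was 9 for FOXP2 when only the arms compared were fitted, 23 for FOXP2 without the 3 libraries with mitochondrial rows at 0, and 97, 74 and 129 without FOXP2 clone 2 and FOXP2-CPED1 clone 4, chosen after seeing the data. Leaving out 1 library at a time gave 2 to 64, 0 to 57 and 2 to 82, and 0 to 1 between the constructs. Members called were 2, 1 and 2. They were 1 for FOXP2 and 1 for both together with pseudocounts of 0.1 and 0.25, 1 for FOXP2 with only the arms compared, 3 for FOXP2-CPED1 with weights or without the 2 clones, and 0, 0 and 1 without the 3 libraries. Leaving out 1 library gave 0 to 2 in each. The cause of these changes was not tested.

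The clone numbers did not pair the clones (same-number correlations -0.036, -0.24, 0.28 and 0.17; not every clone was closest to its own number). With the clone number as a replicate block 56, 47, 0 and 66 genes were called, and 2, 1, 0 and 2 members.

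The log2 ratio of F3 to Tfpi between the constructs (0.034) was -0.094 and -0.057 with pseudocounts of 0.1 and 0.25, and -0.23 to 0.39 with 1 library left out. For all clones against the control it ran from -2.52 to -2.06 with 1 library left out, and the Plau to Plat ratio from -2.67 to -2.21; with 1 of the controls left out the exact test, then 1 library against 8, gave p = 0.111, the smallest possible. Differences near 0 changed sign. With quantile normalization Serping1 between constructs was -0.027 and Serpinf1 for both together 0.029. With weights Tfpi was 0.078 and Plat 0.075 for FOXP2-CPED1, F3 -0.25, F2r -0.089 and Serping1 -0.024 between constructs, and Plat 0.13 and Serpinf1 0.018 for both together. Without the 3 libraries Serpinf1 was 0.082 for FOXP2, -0.025 for FOXP2-CPED1, -0.11 between constructs and 0.028 for both together, Plat 0.049 for both together, and F3 -0.26 and Plaur 0.64 between constructs. Without the 2 clones Plat was 0.15 for FOXP2-CPED1, 0.025 between constructs and 0.13 for both together, and Thbd 0.060 and Serping1 -0.034 between constructs. With 1 library left out, Plat ran from -0.091 to 0.15 for FOXP2, -0.18 to 0.15 for FOXP2-CPED1, -0.19 to 0.11 between constructs and -0.14 to 0.11 for both together. Serpinf1 ran from -0.32 to 0.018, -0.12 to 0.15, -0.0070 to 0.35 and -0.16 to 0.014 in the same order. Tfpi ran from -0.36 to 0.032 for FOXP2-CPED1, and between constructs Thbd from -0.18 to 0.070, Plaur from -0.68 to 0.17 and Serping1 from -0.023 to 0.099.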
